A study of Mus musculus with 6 samples.

Results

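Immune checkpoint ligands are proteins that a cell shows, secretes or uses at its surface to hold back T cells, natural killer cells or phagocytes. The genes of 10 such proteins were followed here: Cd274, Pdcd1lg2, Cd276, Cd47, Nt5e, Entpd1, Cd80, Pvr, Nectin2 and Lgals9. They were chosen by symbol, with earlier results of these data known, and all 10 were found among the 54446 genes of the deposited count tables. RNA came from cultures of the mouse glioma line GL261, a transplantable glioblastoma model that is used in immunocompetent mice. GL261 cells (2 libraries) were kept in a differentiation medium with foetal calf serum, and GL261-GSCs (4 libraries), which the labels call glioblastoma stem cells derived from GL261, grew in defined GSC medium and were dissociated from neurospheres. The labels name no engineered allele and no drug for either culture. Medium and culture form differ together with the group and cannot be told apart from it. The labels do not say whether replicates are separate cultures, so p-values measure the spread between these libraries, which may be technical.

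In the checkpoint system, a ligand on the tumour cell meets a receptor on an immune cell. PD-L1 (Cd274) and PD-L2 (Pdcd1lg2) bind PD-1 on T cells, CD80 binds CD28 and CTLA-4, and CD47 binds SIRP alpha on macrophages as a signal against phagocytosis. CD39 (Entpd1) and CD73 (Nt5e) act in sequence on extracellular ATP and AMP to give adenosine, which inhibits T cells. The poliovirus receptor (Pvr, CD155) and nectin-2 (Nectin2, CD112) are both ligands of the activating receptor DNAM-1 and of the inhibitory receptor TIGIT, and galectin-9 (Lgals9) binds TIM-3. B7-H3 (Cd276) is a B7 family member that is common on gliomas. Interferons are well known inducers of PD-L1.

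Called cells numbered 4264 to 7275 per library, with medians of 6670 to 15477.5 UMIs (unique molecular identifiers, 1 per captured RNA molecule) per cell. Total counts were 80899005 to 121309232 UMIs per library. The 4 GL261-GSCs libraries differed in depth, with medians of 15374.5, 11889.5, 10638 and 6670 UMIs per cell in replicates 1 to 4. Pairs of libraries shared 32 to 59 cell barcodes, against 26.1 to 57.9 expected by chance. Of 7 marker lists of other cells, those of T cells, B cells, neurons and erythroid cells summed to under 1 CPM in every library, and Ptprc, the pan-leukocyte gene that encodes CD45, had 0 to 2 UMIs per library. Cldn5, Rbfox3 and Hbb-bs had none. The summed level of 8 macrophage and microglia markers was 19.98 to 20.96 CPM in GL261 and 9.25 to 23.2 CPM in GL261-GSCs, and within that sum Csf1r measured 12.6 and 12.9 CPM in GL261 and 0.192 to 0.243 CPM in GL261-GSCs, while Cd68 measured 7.04 and 7.87 CPM against 8.92 to 22.97 CPM. The 2 dendritic markers summed to 0.248 to 0.39995 CPM in GL261 and 1.65 to 5.70 CPM in GL261-GSCs, mainly from Flt3. The endothelial sum was 0.895 to 1.61 CPM against 0.334 to 0.888 CPM, from Pecam1 (0.431 and 1.30 CPM against 0.334 to 0.888 CPM) and Cdh5 (0.311 and 0.464 CPM against 1 UMI in the 4 GL261-GSCs libraries). The part of such genes in the results below was not tested. Of glial progenitor genes looked up afterwards, Olig2, Fabp7 and Sox2 were higher in GL261-GSCs by 10.18, 9.87 and 0.87 on the log2 scale (adjusted p = 0.00132, 2.99e-05 and 0.0334), whereas Nes fell by 1.52 on that scale (adjusted p = 0.00523).

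Sequences before the start of 9 of the 10 genes were taken from RefSeq (GRCm38.p6), and 4 are printed. Cd274 and Lgals9 are shown for a motif they share, and Nt5e and Cd276 because their RNA rose in GL261-GSCs. Each is the 250 bases before the RefSeq start, which differs from the GENCODE M21 start used for the gene positions below (for Nt5e and Cd276 the printed stretch lies inside the GENCODE gene). Sequences run 5′ to 3′ on the gene's strand, at chr19:29367188-29367437 (plus strand), chr11:78984925-78985174 (minus), chr9:88327359-88327608 (plus) and chr9:58555034-58555283 (minus). Capitals mark matches, on either strand, of the interferon regulatory factor core GAAANNGAA and of the GC box GGGCGG.
Cd274: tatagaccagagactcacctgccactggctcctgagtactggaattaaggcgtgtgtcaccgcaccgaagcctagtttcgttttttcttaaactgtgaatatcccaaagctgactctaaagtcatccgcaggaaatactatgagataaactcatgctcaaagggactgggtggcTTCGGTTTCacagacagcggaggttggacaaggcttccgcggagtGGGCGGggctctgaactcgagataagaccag
Lgals9: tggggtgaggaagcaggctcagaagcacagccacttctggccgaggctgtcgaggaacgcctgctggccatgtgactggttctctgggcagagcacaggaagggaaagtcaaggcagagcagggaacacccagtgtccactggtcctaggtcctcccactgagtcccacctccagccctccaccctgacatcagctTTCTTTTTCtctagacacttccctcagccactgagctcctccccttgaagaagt
Nt5e: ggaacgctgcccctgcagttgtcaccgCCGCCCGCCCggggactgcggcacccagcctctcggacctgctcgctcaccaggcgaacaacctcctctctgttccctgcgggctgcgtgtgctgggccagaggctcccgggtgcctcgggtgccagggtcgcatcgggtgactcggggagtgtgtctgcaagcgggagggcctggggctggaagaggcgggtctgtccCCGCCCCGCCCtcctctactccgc
Cd276: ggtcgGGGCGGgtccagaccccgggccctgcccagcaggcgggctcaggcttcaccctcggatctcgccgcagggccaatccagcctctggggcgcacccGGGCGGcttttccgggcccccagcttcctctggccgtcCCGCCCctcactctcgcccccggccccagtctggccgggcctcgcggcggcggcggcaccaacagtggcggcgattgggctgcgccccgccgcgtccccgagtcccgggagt
The interferon regulatory factor core had 1 match in Cd274, 76 bases before the start, and 1 in Lgals9, 54 bases before it, and the other 7 members with a sequence had none. Of all 32851 mouse promoters of this length, 7.13% held that core. GC boxes numbered 4 in Nt5e, 3 in Cd276, 1 in Cd274, 2 in Nectin2 and 2 in each of the alternative Cd47 starts, and 32.7% of all promoters held at least 1. In Nt5e the GC boxes overlap in pairs. None of the 9 members with a sequence held TTCNNNGAA (a STAT core, held by 7.02% of promoters), TGACTCA (AP-1, 4.46%) or CACGTG (E-box, 6.02%). Pvr had no RefSeq sequence here and was not searched. A match describes letters only, and binding was not measured.

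Between the 2 cultures the ligands moved in both directions: RNA of the adenosine-producing enzyme CD73 and of B7-H3 rose in GL261-GSCs, that of galectin-9 and the poliovirus receptor fell, and PD-L1 was scarce in both. UMIs were summed over called cells per library and compared with edgeR's quasi-likelihood test over all 18439 genes with enough counts. An adjusted p under 0.05 is called here a rise or a fall, and levels are in CPM (UMIs of a gene relative to all UMIs of the library, scaled by TMM). Of the 10 members 7 had enough counts, of which 2 rose and 2 fell, where 15.8% of all tested genes rose and 14.1% fell (29.9% in all). The groups' CPM ranges did not overlap for 5 of the 7, against 56.7% of all tested genes. The median log2 fold change over all genes was 0.04, and 0.18 when libraries were scaled by their total alone.

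**Figure D1:**
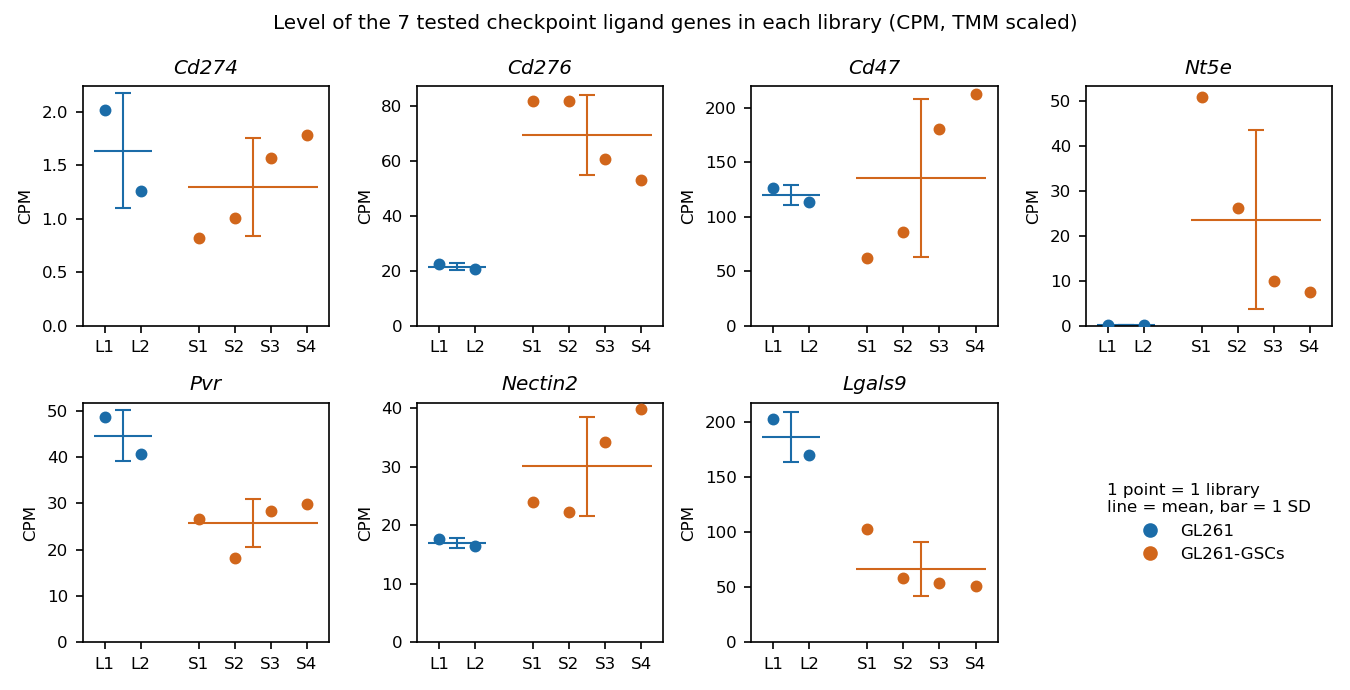
CPM (linear axes from 0) of the 7 tested genes, 1 point per library, with L for GL261 and S for GL261-GSCs followed by the replicate number; lines are group means and bars 1 SD. Cd276 and Nt5e lie higher in all 4 GL261-GSCs libraries, Lgals9 and Pvr lower, and the Cd47 points of GL261-GSCs (62.0 to 212 CPM) lie on both sides of GL261.

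Nt5e (ENSMUSG00000032420.8; GRCm38 chromosome 9, 88327197 to 88372092, plus strand) encodes CD73, which turns AMP into adenosine. It measured 0.222 and 0.133 CPM in GL261 replicates 1 and 2, and 50.8, 26.2, 9.89 and 7.64 CPM in GL261-GSCs replicates 1 to 4. The groups did not overlap, and within GL261-GSCs the highest library stood 6.65-fold above the lowest. The log2 fold change was 7.03 (SE 1.14, adjusted p = 0.0051), from 23 UMIs in all GL261 cells against 6313 in GL261-GSCs. Nt5e was not called without GL261 replicate 1 (log2 fold change 7.45, adjusted p = 0.0515) or without replicate 2 (6.72, adjusted p = 0.0619). The order of Nt5e across the GL261-GSCs libraries is the order of their median depth per cell, whose part was not tested.

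Entpd1 (ENSMUSG00000048120.16; chromosome 19, 40612366 to 40741602, plus strand) encodes CD39, the enzyme upstream of CD73. A single UMI was found in each GL261 library, and 5, 3, 3 and 3 in replicates 1 to 4 of GL261-GSCs, too few for the test. The ratio of the summed counts, GL261-GSCs over GL261, was 3.51 (95% counting interval 0.807 to 31.9). Each count was divided by its group's TMM-scaled total of UMIs in called cells. So the second enzyme of the pair was readily detected in GL261-GSCs while the first was near the detection limit in both cultures.

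Cd276 (ENSMUSG00000035914.11; chromosome 9, 58524298 to 58555437, minus strand) encodes B7-H3. Its level was 22.5 and 20.6 CPM in the GL261 libraries and 81.6, 81.8, 60.8 and 53.1 CPM in GL261-GSCs replicates 1 to 4. Both GL261 libraries were below all 4 of the other group, and replicates of a group stayed within 1.54-fold of each other. The log2 fold change was 1.69 (SE 0.226, adjusted p = 0.00235), a 3.22-fold rise that was called under all 13 alternative settings and left-out libraries.

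Cd274 (ENSMUSG00000016496.7; chromosome 19, 29367455 to 29388095, plus strand), the PD-L1 gene, measured 2.01 and 1.26 CPM in GL261 and 0.819, 1.01, 1.56 and 1.79 CPM in GL261-GSCs. These values rest on 54 to 136 UMIs per library and overlap between the groups. The difference, -0.35 on the log2 scale with an SE of 0.396, did not pass the test (adjusted p = 0.541), and its sign turned without GL261 replicate 1 (0.025, adjusted p = 0.983). Pdcd1lg2 (ENSMUSG00000016498.9; chromosome 19, 29410919 to 29471161, plus strand), the neighbouring PD-L2 gene, had 1 UMI in all GL261 cells and 1 in all GL261-GSCs cells. Cd80 (ENSMUSG00000075122.5; chromosome 16, 38455561 to 38496335, plus strand), a costimulator of antigen-presenting cells, had 4 and 3 UMIs in the GL261 libraries against 2, 2, 2 and 0 in the GL261-GSCs libraries. Its ratio of counts, scaled as for Entpd1, was 0.43 (95% counting interval 0.119 to 1.495). Both PD-L2 and CD80 were thus at the limit of detection in either culture, and no difference was detectable at this depth.

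Cd47 (ENSMUSG00000055447.19; chromosome 16, 49800533 to 49915010, plus strand) was abundant and variable. It measured 127 and 113 CPM in GL261 and 62.0, 86.1, 180 and 212 CPM in GL261-GSCs replicates 1 to 4. In GL261-GSCs 2 libraries lay below and 2 above both GL261 libraries, a 3.42-fold range, while the GL261 libraries differed 1.12-fold. The difference of 0.17 on the log2 scale (SE 0.488) did not pass the test, with an adjusted p = 0.815, and its sign turned without GL261-GSCs replicate 4 (-0.11, adjusted p = 0.877). Across the 4 GL261-GSCs libraries Cd47 had the reverse order of Nt5e, the reverse order of median depth per cell and the same order as the median mitochondrial share (1.04%, 1.11%, 1.26% and 1.35%). In GL261-GSCs replicate 4, the highest in Cd47, 41.2% of UMIs lay in called cells, against 56.7% to 65.7% in the other libraries. The part of these measures was not tested.

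Pvr and Nectin2 encode proteins that share receptors. Pvr (ENSMUSG00000040511.14; chromosome 7, 19903578 to 19921160, minus strand) measured 48.5 and 40.7 CPM in GL261 and 26.5, 18.1, 28.4 and 29.9 CPM in GL261-GSCs. All 4 GL261-GSCs libraries were lower, and the difference of -0.79 (log2, SE 0.215) passed the test with an adjusted p = 0.0323. That fall was not called with libraries scaled by their total (adjusted p = 0.0716), over all barcodes (0.0542), or without GL261 replicate 1 (0.21), GL261 replicate 2 (0.113) or GL261-GSCs replicate 3 (0.0594).
Nectin2 (ENSMUSG00000062300.14; chromosome 7, 19716644 to 19750483, minus strand) measured 17.6 and 16.4 CPM in GL261 and 23.9, 22.2, 34.2 and 39.7 CPM in GL261-GSCs. All 4 GL261-GSCs libraries were above both GL261 libraries, yet the difference of 0.82 on the log2 scale (SE 0.268, adjusted p = 0.0585) did not pass the test. It passed under 6 of the 13 alternatives, among them DESeq2 (adjusted p = 0.0191).

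Lgals9 (ENSMUSG00000001123.15; chromosome 11, 78962974 to 78984946, minus strand) encodes galectin-9, a secreted sugar-binding protein. It measured 203 and 170 CPM in GL261 and 103, 58.7, 53.5 and 51.4 CPM in GL261-GSCs. The groups did not overlap, and GL261-GSCs replicate 1 stood above the other 3 libraries of its group. As for Nt5e, the order of Lgals9 across the GL261-GSCs libraries is the order of their median depth per cell, whose part was not tested. Lgals9 fell 2.79-fold (log2 fold change -1.48, SE 0.293, adjusted p = 0.0107). Without GL261 replicate 1 or 2 it was not called (adjusted p = 0.0871 and 0.0591). Annotated genes overlap Cd274, Pdcd1lg2, Cd276, Pvr and Nectin2 on the opposite strand. Whether the counting used strand is not stated in the labels or headers, so reads of these pairs may not be told apart. Entpd1 is overlapped by genes on its own strand, whose reads strand would not separate.

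**Figure D2:**
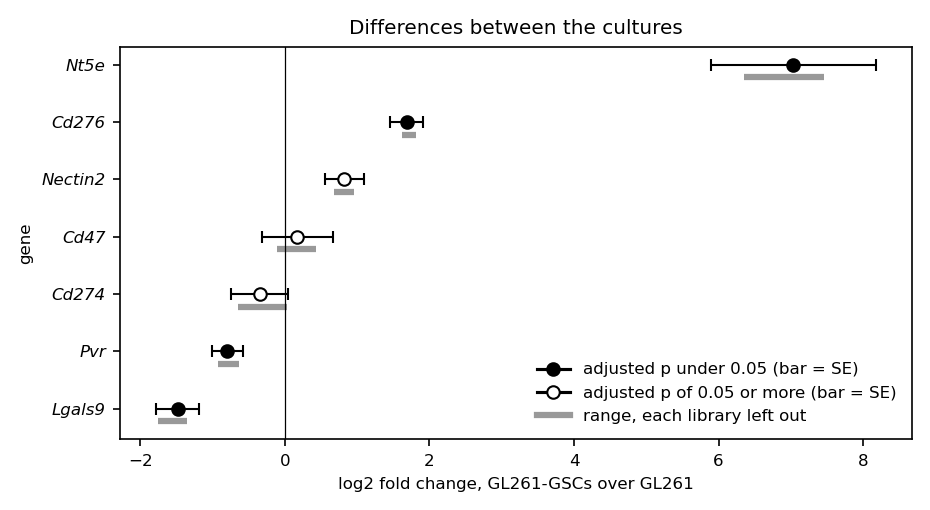
Log2 fold change of GL261-GSCs over GL261 (horizontal axis) for the 7 tested genes, with bars of 1 SE, filled points for adjusted p under 0.05, and grey lines for the range when each library was left out. Nt5e and Cd276 lie to the right, Pvr and Lgals9 to the left, and the left-out ranges of Cd47 and Cd274 cross 0.

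The share of cells with a UMI of each ligand RNA was compared at equal depth. Each cell was thinned to 2000 UMIs, since depth differs between libraries; no called cell was shallower. With 2 against 4 libraries the smallest p of a 2-sided exact permutation test is 0.133, so no share difference can pass 0.05. Free RNA was estimated from barcodes of at least 100 and under 1000 UMIs as the share of cells it alone would give. At 2000 UMIs the shares lay near those of UMIs spread evenly over cells (a Poisson draw at the mean). In GL261 replicate 1 they were 3.49% against 3.51% for Cd276 and 29.4% against 30.3% for Lgals9. Such shares mostly follow the mean level, so they do not tell whether many cells or few carry the RNA.

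Cd276 was found in 3.49% and 3.66% of GL261 cells and in 15.9%, 15.1%, 11.5% and 11.9% of GL261-GSCs cells. The groups did not overlap, with a difference of 10.0 percentage points (exact permutation p = 0.133). Free RNA would give 0.158% to 1.68%, below every observed share. Before thinning the shares were 25.8% and 21.5% against 65.4%, 58.4%, 44.3% and 31.98%.

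Nt5e was found in 0.083% and 0% of GL261 cells and in 10.4%, 5.49%, 2.08% and 1.68% of GL261-GSCs cells. Each of the latter shares exceeded both of the former and also its library's free RNA share of 0.161% to 0.468%. At 2000 UMIs, 0 of 5002 cells allows up to 0.060% of cells with a UMI (3 cells of the total; the exact 95% binomial upper bound is 0.0737%), and unthinned the same library had 8 such cells (0.160%). Unthinned, 43.6%, 22.2%, 8.52% and 5.21% of GL261-GSCs cells had a UMI, with up to 16 UMIs in 1 cell. If the UMIs had fallen evenly over cells (a Poisson draw at the mean), the thinned shares would be 11.3%, 6.08%, 2.26% and 1.76%, so Nt5e UMIs were gathered in somewhat fewer cells than that in all 4 libraries. The thinned shares of Lgals9 and Pvr were likewise below the even value in every library, so this was not particular to Nt5e.

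Lgals9 was found in 29.4% and 25.6% of GL261 cells and in 17.6%, 10.4%, 9.79% and 9.49% of GL261-GSCs cells, with no overlap (exact permutation p = 0.133). Cd47 was found in 20.2% and 18.01% of GL261 cells and 13.0%, 17.3%, 31.4% and 38.3% of GL261-GSCs cells, again on both sides. Nectin2 was found in 2.81% and 2.82% against 5.70%, 4.50%, 7.15% and 9.29%. The shares of Nectin2 did not overlap, as its CPM did not. Unthinned, Lgals9 was found in 81.3% and 77.2% of GL261 cells and in 67.6%, 45.1%, 39.5% and 29.9% of GL261-GSCs cells. For Cd47 the unthinned shares were 72.0% and 66.9% against 55.4%, 59.8%, 78.2% and 72.8%. Those of Nectin2 were 20.4% and 16.8% against 29.4%, 22.9%, 29.9% and 26.0%.

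Pvr was found in 8.57% and 7.06% of GL261 cells and in 5.61%, 4.02%, 6.80% and 7.09% of GL261-GSCs cells, which overlap narrowly (exact permutation p = 0.267). Thinned to 1000 UMIs they did not overlap (4.51% and 3.94% against 2.93%, 1.87%, 3.37% and 3.83%), nor did the unthinned shares, whose means were 39.3% and 23.8%. Over the larger set of cells with at least 1000 UMIs, also thinned to 1000, they overlapped at 4.26% and 3.51% against 2.52%, 2.14%, 3.52% and 4.03% (exact permutation p = 0.4). Cd274 was found in 0.416% and 0.220% against 0.070%, 0.187%, 0.275% and 0.443%, that is in 3 to 20 cells per library. Free RNA would give 0.006% to 0.056% for Cd274. At this depth GL261-GSCs replicate 1 stood at the floor of 3 cells. Unthinned, Cd274 was found in 2.75% and 1.48% of GL261 cells and in 1.24%, 1.21%, 1.69% and 1.44% of GL261-GSCs cells. Free RNA would then give 0.0295% to 0.142%. PD-L1 RNA was thus detected in few cells of both cultures, in shares above the free RNA estimate.

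**Figure D3:**
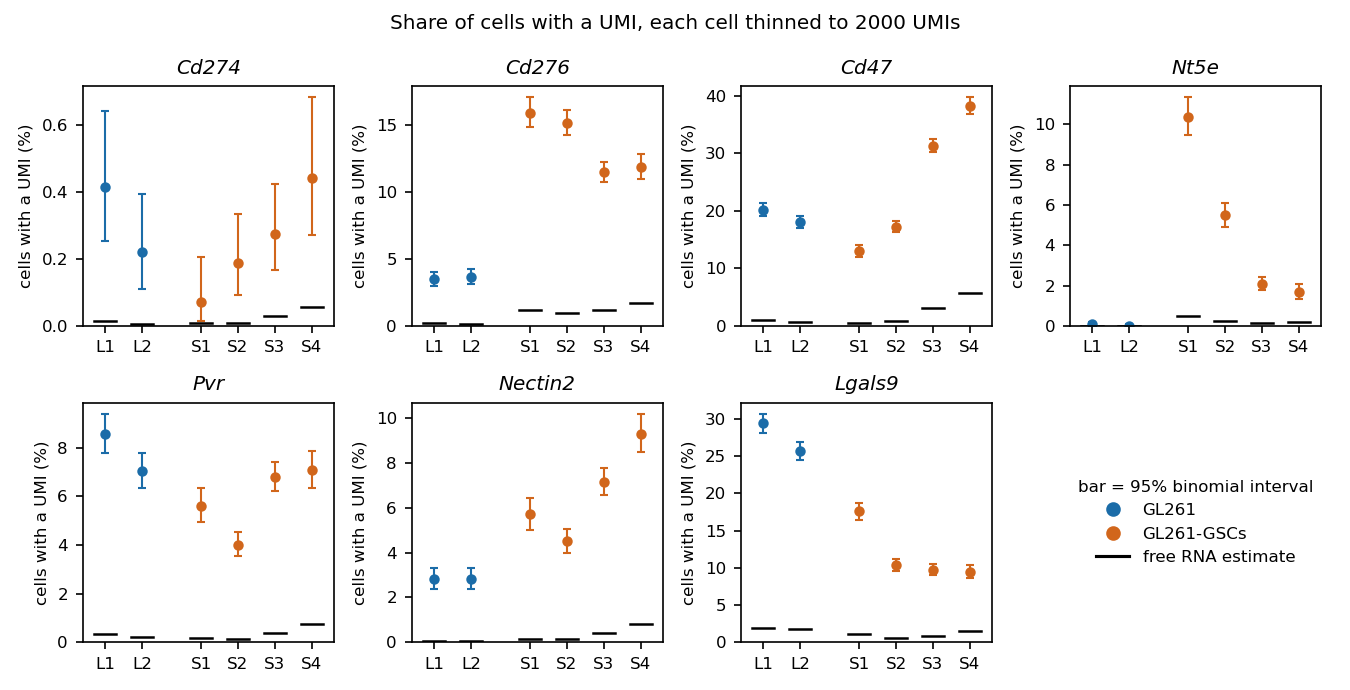
Percent of called cells with a UMI after thinning every cell to 2000 UMIs, per library (L for GL261, S for GL261-GSCs, with the replicate number), with 95% exact binomial intervals that cover counting error only; black ticks give the share that free RNA alone would give. Cd276, Nt5e and Nectin2 are higher in all GL261-GSCs libraries, Lgals9 is lower, and Pvr overlaps narrowly.

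Partners of the members moved unevenly. These gene lists were written for this work, and counts are set beside the 29.9% of all genes called. Of 14 receptors and other binding partners of the members 7 had enough counts, of which 1 rose and 4 fell (median log2 fold change -1.43, against 0.04 for all genes). The median was -0.53, -0.40 and -0.53 without GL261 replicate 1, GL261-GSCs replicate 2 and GL261-GSCs replicate 3, when 5 genes were tested. Of the falls, Thbs1, Rgmb and P4hb are binding partners rather than immune cell receptors. Thbs1 encodes thrombospondin-1, a secreted ligand of CD47. It fell from 1106 and 1533 CPM in GL261 to 0.864, 2.19, 3.69 and 5.49 CPM in GL261-GSCs (log2 fold change -8.77, SE 0.695). Rgmb, a PD-L2 binding partner, fell from 86.7 and 78.2 CPM to 18.2, 23.6, 33.4 and 38.3 CPM (log2 fold change -1.54, SE 0.284). P4hb, a disulphide isomerase that binds galectin-9, fell by 0.50 on the log2 scale (adjusted p = 0.0486), a call lost under 8 of 13 alternatives. Without GL261 replicate 1 or 2 only 1 or 2 genes of the list were called, each a fall, and falls numbered 2 without GL261-GSCs replicate 2 or 3. The receptors Pdcd1 and Cd226 had no UMI in either culture. The other called genes, named after their values were seen, were Tigit, with 30 UMIs over the GL261 libraries and 1 over the others, and the adenosine receptor gene Adora2b, which rose from 0.370 and 0.265 CPM to 1.68, 2.75, 1.45 and 1.04 CPM.

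In the adenosine pathway 15 of the 21 tested genes were called, 7 higher and 8 lower (median -0.33; Nt5e and Entpd1 were not counted). Entpd2, an ATP-cleaving ectoenzyme of the CD39 family, fell from 65.9 and 71.9 CPM in GL261 to 0.167, 0.345, 0.463 and 0.604 CPM in GL261-GSCs (log2 fold change -7.49, SE 0.392, adjusted p = 9.24e-05). The intracellular family members Entpd5 and Entpd6 rose by 1.75 and 1.10 on the log2 scale. Among receptors of ATP and ADP, P2ry1 rose by 4.84 on that scale, from 1.58 and 0.745 CPM to 43.0, 6.72, 37.6 and 46.8 CPM, while P2rx7 fell by 1.25 and P2rx4 fell by 1.02. Of the other ectoenzymes of the list, named here after their values were seen, Entpd3 fell by 2.52 (adjusted p = 0.00224) and Enpp2, which encodes autotaxin, fell by 4.55 (adjusted p = 0.000498) on the log2 scale. Enpp3 rose from 0.341 and 0.116 CPM to 2.52, 4.43, 8.30 and 10.1 CPM (log2 fold change 4.77, SE 0.813, adjusted p = 0.00615). Enpp1 measured 5.90 and 5.73 CPM against 38.1, 15.6, 10.2 and 11.6 CPM and was not called (adjusted p = 0.0676). Alkaline phosphatase (Alpl), another AMP-cleaving ectoenzyme, rose from 0.0166 and 0.0444 CPM to between 4.07 and 26.8 CPM in GL261-GSCs (adjusted p = 0.00473). Calls in this list were 3 higher and 4 lower without GL261 replicate 1, and 2 and 6 without replicate 2.

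Of 31 genes listed as other checkpoint ligands 19 were tested, 1 rose and 5 fell (median -0.14). The list also holds ligands of activating receptors, such as Ulbp1, so these are not counts of inhibitory ligands. Lgals3, encoding galectin-3, fell from 1235 and 1281 CPM in GL261 to 49.1, 21.9, 229 and 199 CPM in GL261-GSCs (log2 fold change -3.33, SE 0.837). Ulbp1, a ligand of the activating receptor NKG2D, fell from 52.2 and 54.9 CPM to 25.7, 13.4, 17.0 and 15.6 CPM (log2 fold change -1.58, SE 0.251). The only rise in this list, named after its values were seen, was Cd200, whose protein restrains myeloid cells. It went from 0.267 and 0.149 CPM to 4.34, 3.91, 12.7 and 25.5 CPM (log2 fold change 5.78, SE 1.10, adjusted p = 0.00929). The other 3 falls, also named afterwards, were H60b, Tnfrsf14 and Clec2d. Without either GL261 library in turn 2 genes of this list were called, both falls, and without GL261-GSCs replicate 1, 2 or 4 there were 2 rises.

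Known regulators of PD-L1 and Cd47 were called in 10 of 25 cases, 5 higher and 5 lower (median -0.22). Myc, a transcription factor described as an activator of Cd274 and Cd47, rose by 1.55 on the log2 scale, from 177 and 148 CPM to 480, 433, 505 and 478 CPM. The interferon receptor subunit Ifngr2 and the kinase Jak2 rose by 1.39 and 0.98. Cd44, Spop (an adaptor for PD-L1 breakdown) and Ube2q1 fell by 1.19, 0.99 and 0.51. Without either GL261 library in turn 1 gene of this list rose and 1 fell, and without GL261-GSCs replicate 3 the counts were 2 and 2. Cd274 itself did not pass the test in either direction, as given above.

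Of 26 interferon-induced genes tested, 1 rose and 6 fell (median -0.88), against 15.8% and 14.1% of all genes. These counts turn on GL261 replicate 1, where all 26 genes were higher than in GL261 replicate 2 (median ratio 2.25, range 1.04 to 4.49). Without it 2 genes were called, both rises (median -0.28), and without GL261 replicate 2 there were 5 calls, each a fall (median -1.55). Leaving out GL261-GSCs replicate 1 gave 12 falls, and leaving out replicate 2, 3 or 4 gave 3. Isg15 measured 274 and 83.1 CPM in GL261 and 77.0, 44.8, 37.4 and 18.9 CPM in GL261-GSCs. Its GL261 libraries differed by more than 3-fold, and without GL261 replicate 1 its log2 fold change shrank from -2.001 to -0.91 (adjusted p = 0.406). Xaf1 fell from 75.5 and 32.9 CPM to 13.9, 3.93, 4.85 and 5.41 CPM, and Rsad2 rose from 8.55 and 3.48 CPM to 48.5, 25.9, 21.3 and 22.5 CPM. Of the 18 G2/M genes edgeR and limma-voom called 0, DESeq2 called 3, and 3 had an unadjusted p under 0.05. Of the 20 genes named by rule in these lists 7 were called under all 13 alternatives: Ulbp1, Thbs1, Entpd2, Entpd5, P2rx7, Myc and Cd44. The other 13 lost the call under at least 1, most often without a GL261 library (12 without replicate 1, 10 without replicate 2).

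**Figure D4:**
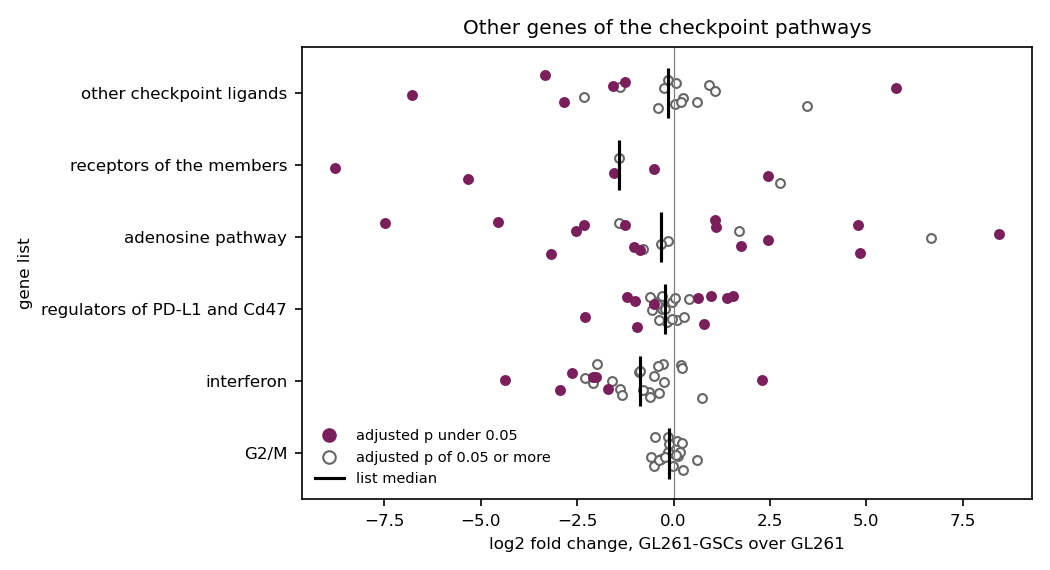
Log2 fold change of GL261-GSCs over GL261 for each tested gene of 6 lists (1 point per gene, spread vertically for legibility), filled where the adjusted p was under 0.05; the black bar is the list's median. The list plotted as receptors of the members also holds other binding partners such as Thbs1 and Rgmb. That of other checkpoint ligands also holds ligands of activating receptors, such as Ulbp1. Adenosine pathway genes spread widely to both sides.

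Within each library, members were then compared between cells that had at least 1 UMI of the 26 interferon-induced genes and cells that had none, after thinning to 2000 UMIs. Galectin-9 RNA was higher in the cells with a list UMI at this depth in every library. This did not hold for the poliovirus receptor or, in this split, for Cd47, and PD-L1 had too few UMIs. Cells with a list UMI were 77.5% to 95.2% of a library. The most abundant gene of the list in every library was Bst2, at 870 and 506 CPM in GL261 and 259 to 642 CPM in GL261-GSCs. Its part in the split was not tested. At 4000 UMIs, among cells that deep, they were 94.0% to 99.5%, so a cell without one at 2000 need not lack such RNA. In the cells with a list UMI at 2000 UMIs Lgals9 had 0.368 and 0.313 UMIs per cell in GL261, and its GL261-GSCs values were 0.217, 0.115, 0.114 and 0.107. In cells without a list UMI the GL261 values were 0.239 and 0.282, and GL261-GSCs had 0.123, 0.0996, 0.0693 and 0.0828. The mean log2 ratio was 0.48 (SD 0.278, n = 6), above 0 in 6 of 6 libraries. An exact sign-flip permutation test gave p = 0.03125, the smallest that 6 libraries allow. After adjustment over the 8 member and list pairs it was 0.0833, which does not pass 0.05. Even that smallest p passes the adjustment only if most of the 8 pairs reach it, so the adjusted test could hardly decide.

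For Cd47 the mean log2 ratio was 0.05 (SD 0.175), above 0 in 3 of 6 libraries, and for Pvr it was -0.06 (SD 0.222), above 0 in 2 of 6. Median depth before thinning was higher in the cells with a list UMI in every library. It was 6949 against 5728.5 UMIs per cell in GL261-GSCs replicate 4, 15504 against 14267 in GL261 replicate 1 and 13665 against 13585 in GL261 replicate 2. The part of depth was not tested. A split added after seeing the data, at the library's median of list UMIs with levels in CPM, gave enough Cd274 UMIs. Cd274 was then higher in 5 of 6 libraries (mean log2 ratio 0.25, SD 0.2003, exact permutation p = 0.0625, adjusted 0.125). Cd47 was likewise higher in 5 of 6 (0.14, SD 0.136, exact permutation p = 0.0625, adjusted 0.125). Lgals9 was higher in 6 of 6 by 0.42 (exact permutation p = 0.03125, adjusted 0.0938). The interferon regulatory factor core was found before the starts of Cd274 and Lgals9 and not before those of Cd47, and whether it bears on these ratios was not tested.

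The same comparison was made for 18 genes of the G2/M phase of the cell cycle. Some of these are abundant, such as Ube2c (449 to 733 CPM over the libraries) and Top2a (424 to 600 CPM). A cell with a list UMI need therefore not be in G2/M, and the split is not a call of phase. Lgals9 was lower in cells with a G2/M UMI in 6 of 6 libraries (mean log2 ratio -0.33, SD 0.196), and Cd47 likewise (-0.15, SD 0.145). Each gave an exact permutation p of 0.03125, adjusted 0.0833, which does not pass and, by the limit given for the interferon split, hardly could. Pvr was higher in 5 of 6 libraries (0.21, SD 0.206) and Cd276 in 5 of 6 (0.12, SD 0.172), while Nectin2 was higher in 2 of 6 (-0.21, SD 0.292). None of these 3 passed (exact permutation, adjusted p = 0.188, 0.25 and 0.25). Over the 4 other settings, which changed the depth, the scaling or the split, the mean ran from -0.39 to -0.23 for Lgals9, from -0.21 to -0.089 for Cd47, from 0.10 to 0.24 for Pvr and from -0.29 to -0.09 for Nectin2. For Cd276 it ran from -0.085 to 0.13, below 0 at 4000 UMIs per cell and in the split at the median of list UMIs. In that split Pvr was higher in 6 of 6 libraries (exact permutation p = 0.03125, adjusted 0.0938). At 4000 UMIs per cell Lgals9 was higher in cells with a G2/M UMI in 2 of 6 libraries and Cd47 in 1 of 6. With CPM of unthinned cells Cd47 was also higher in 1 of 6.

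**Figure D5:**
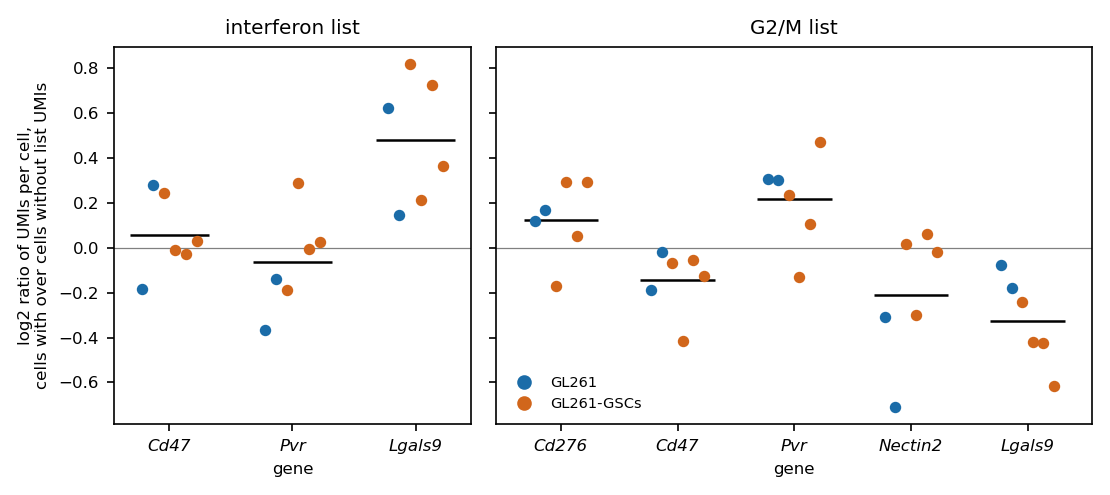
Log2 ratio of UMIs per cell between cells with and without UMIs of the interferon list (left) or the G2/M list (right), 1 point per library, black bar for the mean of 6 libraries, for the members with enough UMIs. Lgals9 lies above 0 in all libraries on the left and below 0 in all on the right, as does Cd47 on the right.

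Genes whose levels ran most like a member across the 6 libraries were named by Pearson's r of log2 CPM among 5311 or 5312 well expressed genes, as a description. For Nt5e these were Rint1 (r = 0.998), Lrrc8b (0.998) and Aggf1 (0.997), and for Cd276 Pla2g6 (0.999), Iqgap2 (0.997) and Ppp2r2a (0.997). Lgals9 ran most like Kctd10 (0.995), Rnf41 (0.995) and Tspan15 (0.995). Such likeness was common, since 187, 224 and 205 genes exceeded an r of 0.95 with Nt5e, Cd276 and Lgals9, and 6 libraries of 2 groups share the group difference.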

How the data were processed

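RNA was measured in 6 droplet libraries of a 5′ gene expression kit. Per the labels, dissociated cells met a lysis buffer with a non-ionic detergent and were captured as cells or nuclei, without saying which. The authors deposited raw UMI counts per gene and barcode (54446 genes by 737280 barcodes) from Cell Ranger 4, per the file headers, on mm10, per the submitters' processing notes.

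Cells were barcodes above 10% of the 99th percentile of the 3000 largest, with at least 500 genes and at most 10% mitochondrial UMIs. Doublets were not called. Counts were summed per library and tested with edgeR 4.0.16 (TMM, filterByExpr, quasi-likelihood, Benjamini-Hochberg over all genes tested). Pearson's r used log2 of CPM plus a pseudocount of 0.5. Shares and within-library ratios used cells thinned to 2000 UMIs, with a minimum of 10 UMIs on each side of a split. DESeq2 1.42.0, limma-voom 3.58.1, other scaling, filters and cell sets, a replicate block and leaving out each library were alternatives. Scripts were tested on simulated data. The 20 pathway genes named are, per list, up to 3 largest rises and 3 largest falls with an adjusted p under 0.05 and average log2 CPM of at least 3. Gene positions are from GENCODE M21 by identifier. The members and lists were chosen with earlier results of these data known.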

Additional observations from a re-analysis of the deposited data

Results flagged for a closer look

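Of 38 values looked at over the 4 GL261-GSCs libraries, 4 had 1 library whose gap to the nearest other, divided by the range, exceeded Dixon's critical value; chance gives that in about 1 in 20 sets. GL261-GSCs replicate 1 was the library that stood apart in each, and its value was the highest. The gap was 0.859 of the range for the Lgals9 CPM (103 against 51.4 to 58.7) and 0.886 for the share of cells with an Lgals9 UMI (17.6% against 9.49% to 10.4%). For the interferon-induced genes it was 0.831 for the Rsad2 CPM (48.5 against 21.3 to 25.9) and 0.852 for the Xaf1 CPM (13.9 against 3.93 to 5.41). Lgals9 remained lower in GL261-GSCs without that library (log2 fold change -1.76, adjusted p = 0.000501).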

How the results depend on the processing

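The precision is limited by 2 GL261 libraries. Leaving out each library moved the number of genes called from 5514 to between 1817 and 6193, the members called higher from 2 to between 1 and 3, the members called lower from 2 to between 0 and 2, the genes called in the 4 pathway lists other than interferon from 35 to between 12 and 38, and the interferon genes called from 7 (1 higher, 6 lower) to between 2 (both higher) and 13 (1 higher, 12 lower). Cd276 kept its call under all 13 alternatives. With library size scaling and over all barcodes 1 member was called lower. The sign of Cd274 turned without GL261 replicate 1, where its left-out values ran from -0.65 to 0.025, and that of Cd47 without GL261-GSCs replicate 4, with a range of -0.11 to 0.43. With the replicate block the log2 fold change of Cd47 was -0.71 (adjusted p = 0.0332), Nectin2 was called at 0.44 (adjusted p = 0.0438), and 6512 genes were called; same-numbered libraries deviated together with correlations of -0.03 and 0.04 over 18439 genes, so the numbers are not taken as a pairing. At 4000 UMIs per cell 0 of the members with enough UMIs kept 1 direction in 6 of 6 libraries, against 1 for the interferon list and 2 for the G2/M list. Lgals9 was then left out for the interferon list, with 7 UMIs in GL261 replicate 1 cells without list UMIs, though its log2 ratio was above 0 in all 6 libraries (0.20 to 1.31). With CPM of unthinned cells 1 member did so for the G2/M list. The G2/M ratio of Cd276 changed sign at 4000 UMIs (-0.015) and at the median of list UMIs (-0.085). The cause of these changes was not tested.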

Other observations

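After thinning to 2000 UMIs, 41.3% to 55.1% of the cells of a library had no UMI of any member, 34.4% to 41.8% had a UMI of 1 member and 8.92% to 14.5% of 2. Cells with 3 members were 0.760% and 0.915% in GL261 and 1.40% to 2.25% in GL261-GSCs. The number of cells with UMIs of both members of a pair was set beside the product of their shares in 62 pairs and libraries, with a median ratio of 1.03 (range 0.692 to 1.97). Pairs and libraries where the product was small were left out. The highest of those kept was Nt5e with Pvr in GL261-GSCs replicate 1, where 49 cells had both against 24.8 from the product. Cd47 and Nectin2 were found together in 40, 61, 202 and 196 cells of GL261-GSCs replicates 1 to 4 against 31.6, 45.6, 163 and 161, and in 21 and 21 cells of GL261 against 27.3 and 25.4. These counts were not tested.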
